A study of Homo sapiens with 16 samples.

Results

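RWPE1 is an established line of human prostate epithelial cells, and 6 of the 16 RNA libraries of the series came from RWPE1 cells made to over-express a wild-type construct (replicates 13 to 18, as the labels number them). The others were 4 libraries labelled T164A (replicates 91 to 94), whose cells over-express a mutant of that construct, and 6 libraries of cells given an empty vector, an altered pTRIPZ (replicates 1 to 6). The 6 wild-type libraries differed from one another in a graded way. They were ranked by KLK3, and every gene with a mean of 8 or more over them was correlated with KLK3. In all, 8952 of 20166 gene symbols reached that mean. Values are the deposited log2 values, on which a difference of 1 is a factor of 2. No clone, culture, day or time after engineering is given for any library, so libraries of a group may be technical repeats.

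KLK3 encodes prostate-specific antigen, a serine protease that luminal cells of the prostate secrete and whose transcription androgens drive. The epithelium of the prostate is layered. Luminal cells make secretory proteins and keratins such as KRT8 and KRT18, while the basal cells beneath them make KRT5, KRT14, the transcription factor TP63 and the integrins that anchor cells to the basement membrane.

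The sequences upstream of KLK3 and of its neighbour KLK2, which encodes a closely related protease, are shown because the transcripts of both genes varied together across the wild-type libraries. Each is the run of 250 bases before the RefSeq start site, from GRCh38.p14, on the plus strand, at chr19:50854665-50854914 for KLK3 and chr19:50873189-50873438 for KLK2. Capitals mark matches to AGAACA, core letters of the androgen response element, or to TATAAA, the TATA box, on either strand (TGTTCT and TTTATA on the other).
KLK3: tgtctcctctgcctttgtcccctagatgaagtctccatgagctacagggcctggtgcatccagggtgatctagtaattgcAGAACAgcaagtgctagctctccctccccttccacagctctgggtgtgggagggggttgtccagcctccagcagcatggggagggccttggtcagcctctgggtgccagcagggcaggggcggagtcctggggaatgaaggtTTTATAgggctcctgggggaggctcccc
KLK2: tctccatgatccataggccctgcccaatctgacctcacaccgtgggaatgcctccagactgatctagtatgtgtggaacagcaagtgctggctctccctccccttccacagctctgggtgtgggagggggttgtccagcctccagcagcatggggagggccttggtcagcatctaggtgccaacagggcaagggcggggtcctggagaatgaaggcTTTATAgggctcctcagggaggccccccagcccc
The match to AGAACA in KLK3 starts at position -170 from the start site. The letters TTTATA start at -28 in KLK3 and at -34 in KLK2. Over 263 aligned columns the windows were 80.2% identical, with a longest shared run of 80 bases. AGAACA stood in 12.4% of all 27305 promoters of the table on either strand, and in 7% of the 7472 promoters matched to genes with a mean of 8 or more. Among genes defined below, it stood in 6.46% of 789 promoters of genes rising with KLK3, in 5.94% of 556 promoters of falling genes and in 8.01% of 1373 promoters of genes that did not follow it.

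The ranking by KLK3 put wild-type replicate 14 lowest and replicate 18 highest. KLK3 was at 14.35 in replicate 14, 15.10 in 13, 15.16 in 17, 15.21 in 16, 15.31 in 15 and 15.50 in 18. The range of 2.21-fold was made of 1 step of 0.75 between replicates 14 and 13 and of steps of 0.05 to 0.19 above it, against a 95% counting error of 0.0138 to 0.0171 on each value. KLK3 averaged 15.11 ± 0.39 (SD, n = 6) in wild-type libraries, 0.72 ± 0.67 (n = 4) in those labelled T164A and 2.14 ± 1.88 (n = 6) in vector libraries, the last pair of means lying below the floor of 3 reads (2.30 on average over libraries). Vector replicates 3, 4 and 6 were above that floor, at 3.76, 4.19 and 3.47. KRT5, the keratin of basal cells, was at 16.72, 16.68, 16.49, 16.48, 16.50 and 16.26 in the same order of wild-type libraries, so its highest and lowest libraries were the opposite ones. Estimated depth was 19200000 reads in replicate 14, 12300000 in replicate 18 and 13500000 to 16000000 in the others. The deepest library thus held the least KLK3 and the shallowest the most, and the part of depth in the gradient was not tested. Fewer cells of a type and less RNA per cell cannot be told apart in any of these bulk libraries.

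Genes with a Pearson r of 0.9 or more with KLK3 are called rising, those at -0.9 or less falling, and those between -0.3 and 0.3 not following. Because these values chose the genes, r, rho and slopes are given as a description with no test. Of the 8952 genes, 964 were rising (10.8%), 649 were falling (7.25%), 1638 did not follow (18.3%) and 5701 lay between these classes. Genes just inside and just outside the limits were nearly the same: P2RX4 had r = 0.900248 and ASNA1 0.899971, ZNF451 had -0.900302 and CD58 -0.899951, and USP49 had a mean of 8.00096 where CDC25C had 7.99989. Spearman's rho was 1 for 142 genes and -1 for 136. The first principal component of the 6 libraries held 62.4% of the variance and had r = 0.988 with KLK3. The second component (15.3%) set replicates 18 and 14 against 17 and 13, and the third (10.6%) set 13 against 17.

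Replicate 14 carried much of this order. It was the lowest library for all 964 rising genes and the highest for all 649 falling genes. Replicate 18 was highest for 752 rising genes and lowest for 529 falling genes. The classes were cut on r with KLK3, which was itself lowest by far in replicate 14. These counts thus follow at least in part from that choice and are a description. Over the other 5 libraries, 506 genes were rising (5.65%) and 719 falling (8.03%). Leaving out 1 of replicates 13, 15 or 17 instead gave 1158, 1009 or 1051 falling genes. The sets with and without replicate 14 shared 305 rising genes, which is 31.6% of the 964, and 142 falling genes, which is 21.9% of the 649. Without replicate 14, r kept its sign for 951 of the rising genes and for 643 of the falling genes. For this reason r over 5 libraries, without replicate 14, is given beside most r values over 6, and for a few genes r is given over the middle 4 that remain when replicates 14 and 18, the farthest from the median of KLK3, are left out.

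**Figure D1:**
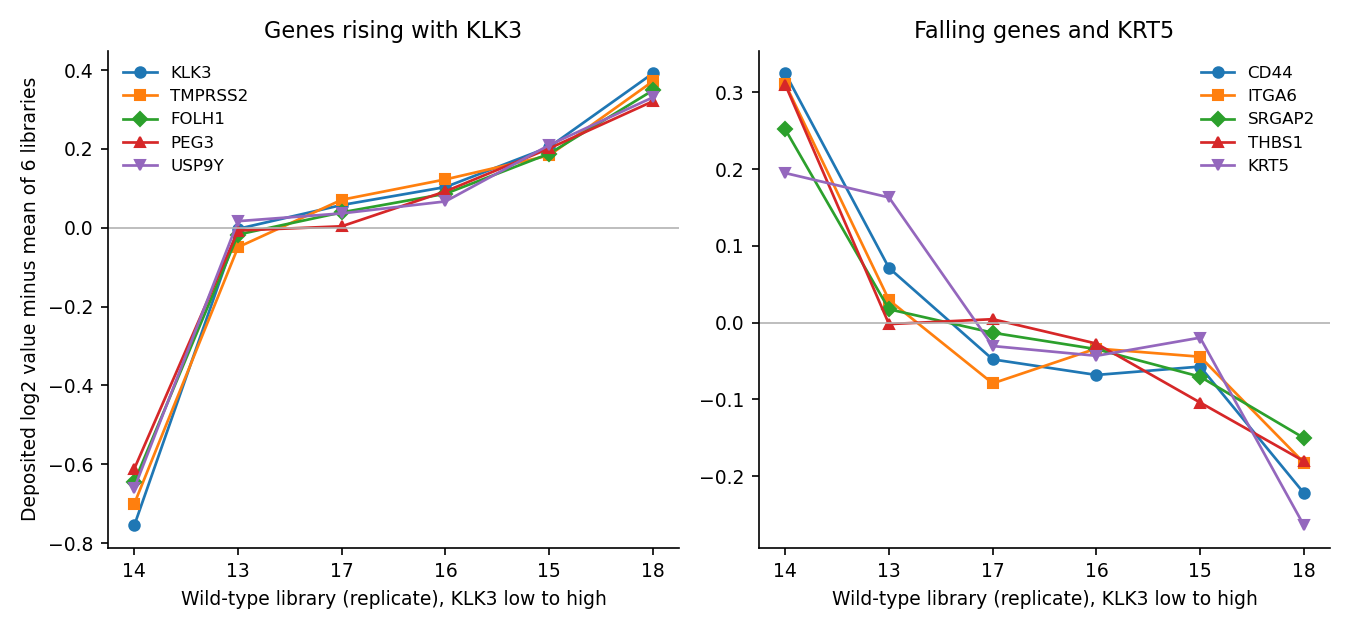
Deposited log2 value minus the mean of the 6 wild-type libraries (y axis) for 5 genes that include KLK3 and follow it (left) and for 4 falling genes and KRT5 (right), with the libraries ordered by KLK3 from low to high (x axis, replicate number). All genes on the left step up most between replicates 14 and 13 and are highest in 18, while KRT5 is nearly level between 14 (16.72) and 13 (16.68) and lowest in 18 (16.26).

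Luminal proteases and surface proteins followed KLK3 closely. Of 23 prostate luminal genes with a mean of 8 or more, out of 33 measured, 20 were rising, none were falling and none were in the class that did not follow. Over 5 libraries 13 were rising and 1, KRT19, was falling. Of all genes, 10.8% were rising, 7.25% falling and 18.3% not following over 6, and 5.65% rising and 8.03% falling over 5. The median slope of the 23 genes was 0.86 log2 units per unit of KLK3 (0.74 without replicate 14), against -0.03 for all 8952 genes. KLK3 itself belongs to the list, with r and slope fixed at 1. These counts, the median and the sums below include it. The summed estimated reads of all measured genes of the list, scaled to 1000000 reads per library (RPM), were 4781, 7190, 7813, 7993, 8311 and 9505 RPM in replicates 14, 13, 17, 16, 15 and 18. The same sum was 632 to 646 in libraries labelled T164A and 657 to 787 in vector libraries, so every wild-type library lay above both other groups.

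FOLH1, which encodes prostate-specific membrane antigen, was at 12.85, 13.48, 13.54, 13.59, 13.69 and 13.85 in replicates 14, 13, 17, 16, 15 and 18. It had the highest r with KLK3 of any other gene (0.999, slope 0.86), and r stayed at 0.999 over 5 libraries. TMPRSS2, a serine protease of the luminal cell surface, was at 12.72, 13.37, 13.49, 13.55, 13.61 and 13.80 (r = 0.998, and 0.985 over 5 libraries, slope 0.93). KLK2 was at 11.46, 12.20, 12.28, 12.38, 12.39 and 12.59, with r = 0.997 over 6 libraries, 0.973 over 5 and 0.901 over the middle 4. These 3 genes stood in the order of KLK3 in every library, and the slope of KLK2 was 0.99, nearly that of KLK3 itself. Whether reads of KLK2 and KLK3 were separated cleanly is not stated for the counting.

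The transcription factors of luminal cells followed as well. HOXB13, a homeobox factor of the prostate, was at 10.34, 10.97, 11.16, 11.12, 11.20 and 11.34 (r = 0.990, slope 0.89; r = 0.917 over 5 libraries). It averaged 11.02 ± 0.36 (n = 6) in wild-type libraries, 7.97 ± 0.01 (n = 4) in those labelled T164A and 3.45 ± 0.44 (n = 6) in vector libraries. FOXA1, a factor that opens closed chromatin, had r = 0.975 and a slope of 0.81, and its r was 0.845 over 5 libraries. FOXA1, the keratins KRT8, KRT18 and KRT19, KDM5D, HSP90B1 and ISG15 were chosen for the text after their values were seen.

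Genes outside the luminal list were among the closest followers. MME, the membrane peptidase neprilysin, was at 11.99, 12.60, 12.64, 12.68, 12.80 and 12.97 (r = 0.998, and 0.997 over 5 libraries, slope 0.84). It averaged 12.61 ± 0.33 (n = 6) in wild-type, 6.14 ± 0.32 (n = 4) in T164A-labelled and 8.38 ± 0.22 (n = 6) in vector libraries, and was thus above vector by 4.23 (SE 0.13, limma adjusted p = 6.32e-19). ATXN10, a gene of a hereditary ataxia, was at 10.15, 10.52, 10.54, 10.56, 10.62 and 10.74, with the same r (0.994 over 5 libraries) but a slope of 0.51. It averaged 10.52 ± 0.20 (n = 6) in wild-type libraries, 11.43 ± 0.02 (n = 4) in those labelled T164A and 9.26 ± 0.16 (n = 6) in vector libraries. STXBP5L, a syntaxin-binding protein, was at 7.35, 8.05, 8.16, 8.16, 8.22 and 8.41 (r = 0.997, and 0.977 over 5 libraries, slope 0.93).

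Slopes near or above 1 belonged to a few genes. HPN, which encodes the protease hepsin, was at 9.71, 10.48, 10.80, 10.71, 10.63 and 10.83 (slope 1.01), but its r of 0.955 dropped to 0.585 without replicate 14. OR51E1, an olfactory receptor known from the prostate, had the largest slope (1.07, SE 0.11; 1.40 over 5 libraries). AZGP1, which encodes a secreted zinc-binding glycoprotein, was at 8.07, 8.45, 8.80, 8.85, 8.88 and 9.28 (slope 0.97; 1.79 over 5 libraries). The tumour antigens MAGEA10 and PRAME (slopes 1.03 and 0.98) and the cation channel TRPM2 (1.002) also had slopes near 1, and the r of TRPM2 was 0.968 over 6 and 0.794 over 5 libraries. Of the rising genes, 155 had a slope of 0.7 or more and 5 a slope above 1, while the median was 0.42 and the lowest 0.11.

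The keratins of luminal cells did not share this pattern. KRT8 was at 10.35 in replicate 14 and between 10.79 and 10.87 in the other 5, where its r was -0.572 (0.891 over all 6). KRT18 was at 9.56, 9.79, 9.98, 9.88, 9.98 and 9.88 (r = 0.866, and 0.193 over 5 libraries). KRT19, found in both layers, ran the other way at 11.60, 11.60, 11.49, 11.44, 11.41 and 11.15 (r = -0.729, and -0.982 over 5). The ratio of these keratins to KLK3 was thus lowest in replicate 18.

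Androgen response genes split in 2. Of 28 genes with a mean of 8 or more, 14 were rising, 1 was falling and 4 did not follow, beside 10.8%, 7.25% and 18.3% of all genes. Over 5 libraries 11 were rising and none falling, beside 5.65% and 8.03%. The median slope was 0.28 over 6 and over 5 libraries alike. Some of the 14 also belong to the luminal list, and the 14 include KLK3 itself. ADAMTS1, a secreted metalloprotease, was at 10.81, 11.40, 11.47, 11.55, 11.62 and 11.80 (r = 0.998, slope 0.86), and it averaged 11.45 ± 0.34 (n = 6) in wild-type, 11.39 ± 0.06 (n = 4) in T164A-labelled and 5.56 ± 0.22 (n = 6) in vector libraries.

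Y-linked genes followed KLK3 as closely as luminal genes did. Of 7 Y-linked genes with a mean of 8 or more, 6 were rising over 6 libraries and 5 over 5, beside 10.8% and 5.65% of all genes. Their median slope was 0.81 (0.96 without replicate 14). Their median r was 0.986, against 0.979 for the luminal genes. Summed over the 11 measured Y-linked genes, estimated reads were 404, 615, 633, 669, 714 and 807 RPM in replicates 14, 13, 17, 16, 15 and 18. The range was 3.08 to 4.73 in libraries labelled T164A and 20.7 to 26.1 in vector libraries. USP9Y, a deubiquitinase, was at 11.29, 11.97, 11.99, 12.02, 12.16 and 12.28 (r = 0.998, and 0.985 over 5 libraries, slope 0.87). The histone demethylase KDM5D had a lower r (0.921) but a slope of 1.57 over 5 libraries, since replicate 18 stood well above the rest at 8.74. UTY, whose protein resembles the histone demethylase KDM6A, was at 6.13, 6.62, 6.89, 6.91, 6.61 and 7.27. Its mean of 6.74 kept it out of the correlation, and it too was lowest in 14 and highest in 18. RPS4Y1 (r = 0.994, and 0.955 over 5 libraries) and DDX3Y (0.986 and 0.888) may share reads with RPS4X and DDX3X.

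The X-linked relatives did not share this order as a group, with a median slope of -0.07. Of these 9 genes 1 was rising and 1 falling, near the 10.8% and 7.25% of all genes. KDM6A was the rising one, at 11.03, 11.23, 11.31, 11.34, 11.45 and 11.51 (r = 0.957, and 0.965 over 5 libraries). USP9X had r = -0.964, with replicate 14 at 11.96 and the other 5 at 11.77 to 11.82, and over the middle 4 libraries its r was 0.25. RPS4X and DDX3X lay between the classes, at r = 0.832 and -0.794, and over 5 libraries at -0.0896 and -0.335. EHMT2, which encodes the histone methyltransferase G9a, was at 9.79, 9.99, 10.08, 10.07, 10.07 and 10.07. Its r of 0.9502 rested on replicate 14, and over 5 libraries r was 0.536. The symbol stands on several rows, of which the one with the highest mean was used. Of the 22 histone modifiers measured at this level, 3 were rising (EHMT2, KDM6A and the demethylase KDM4B) and 1, the demethylase KDM5B, was falling (r = -0.956). These shares lie near the 10.8% rising and 7.25% falling of all genes, and over 5 libraries 1 of the 22, KDM6A, was rising and none were falling.

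**Figure D2:**
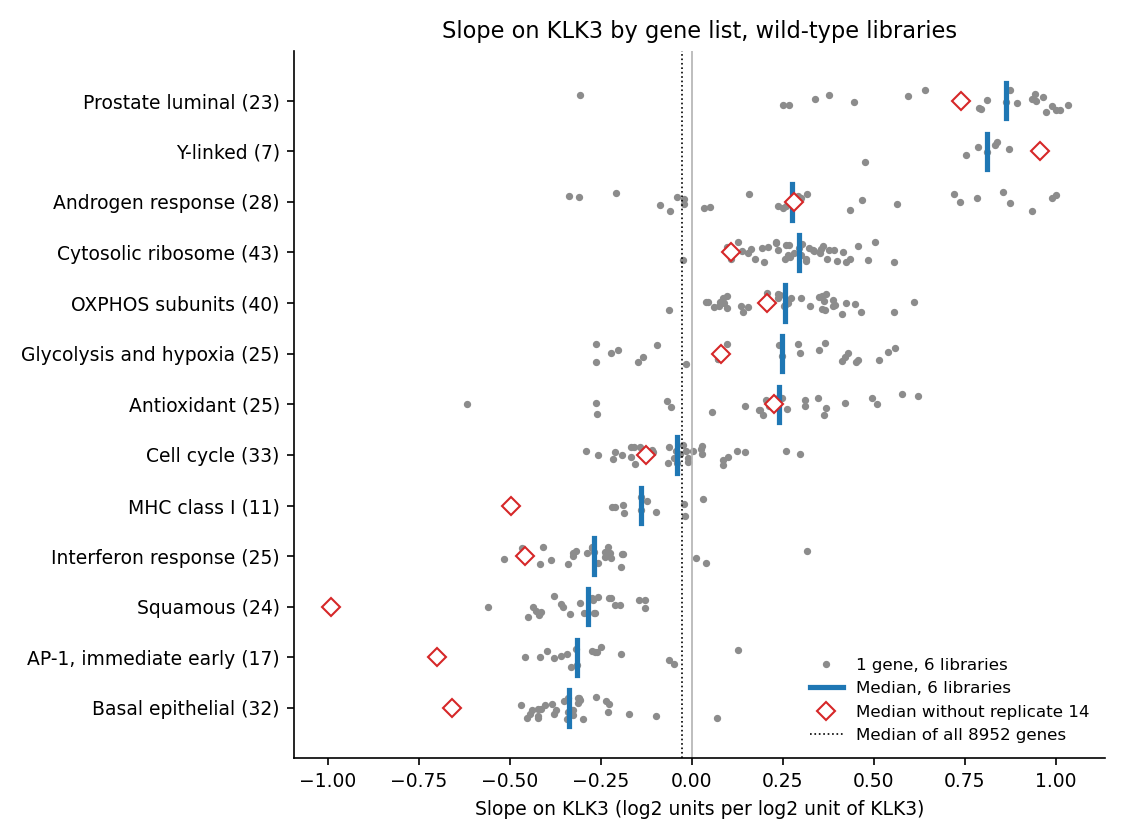
Slope of each gene on KLK3 over the 6 wild-type libraries (x axis, log2 units per log2 unit of KLK3) for 13 gene lists (y axis, with the number of genes that have a mean of 8 or more). Grey points are genes, blue bars list medians, open red diamonds medians without replicate 14, and the dotted line is the median of all 8952 genes (-0.03). Luminal and Y-linked lists have medians of 0.86 and 0.81, and leaving out replicate 14 moves the basal median from -0.34 to -0.66 and the squamous median from -0.29 to -0.99.

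Genes of basal cells ran against KLK3. Of 32 basal genes, 16 were falling over 6 libraries and 12 over 5, beside 7.25% and 8.03% of all genes, and none were rising. Their median slope was -0.34 (-0.66 without replicate 14). Summed estimated reads of the list were 30842, 29428, 26854, 26567, 26245 and 23454 RPM in replicates 14, 13, 17, 16, 15 and 18, against 13500 to 14950 in libraries labelled T164A and 37770 to 41850 in vector libraries. The wild-type library with the least KLK3 was thus still below every vector library, and the one with the most KLK3 still above every library labelled T164A.

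ITGA6, the laminin receptor subunit of hemidesmosomes, was at 14.09, 13.81, 13.70, 13.75, 13.74 and 13.60 (r = -0.979, and -0.870 over 5 libraries, slope -0.42). CD44, the hyaluronan receptor, was at 13.996, 13.74, 13.62, 13.60, 13.61 and 13.45 (r = -0.972, slope -0.45, and -0.63 over 5 libraries). TP63, the master transcription factor of basal cells, was at 12.12, 11.95, 11.72, 11.78, 11.78 and 11.55 (r = -0.903, and -0.862 over 5). Replicates 17, 16 and 15 were close to each other for all 3 genes, so the fall lay at both ends of the order. The desmosomal cadherin DSG3 (r = -0.946), the integrin ITGB6 (-0.972) and the zinc finger protein BNC1 (-0.964) were falling too, with r of -0.884, -0.771 and -0.799 over 5 libraries.

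Other basal genes broke the order at its low end. KRT14, the partner of KRT5, was higher in replicate 13 (14.23) than in replicate 14 (14.07), and its r was -0.605 over 6 libraries but -0.881 over 5. ITGB4, the partner subunit of ITGA6, was at 13.50, 13.32, 13.39, 13.27, 13.18 and 12.998 (r = -0.846, and -0.954 over 5). For KRT5 itself r was -0.798 and the slope -0.34, against -0.905 and -0.89 without replicate 14. With KRT5, sign turned round, in the place of KLK3, 224 genes reached r of 0.9 where KLK3 gave 964, and 584 reached -0.9 where KLK3 gave 649.

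Squamous genes had a steep negative median slope over the 5 libraries above replicate 14, which itself stood below replicate 13 in their sum. Of 24 squamous genes with a mean of 8 or more, 3 were falling over 6 libraries and 6 over 5. Among all genes 7.25% and 8.03% were falling. The median slope of the list was -0.29 over 6 and -0.99 over 5. Its summed estimated reads were 7246 RPM in replicate 14, 7507 in 13, 6254 to 6265 in 16, 17 and 15 and 5593 in 18. The sum was thus nearly level across 16, 17 and 15, and its decline lay at replicates 13 and 18. SERPINB13, a protease inhibitor of squamous epithelium, was at 11.68, 11.44, 11.31, 11.37, 11.32 and 11.16 (r = -0.960, and -0.907 over 5). A2ML1, a protease inhibitor of the upper epidermis, had r = -0.951 over 6 and -0.802 over 5. KRT10, the keratin of cells leaving the basal layer, was at 15.15, 15.03, 14.76, 14.81, 14.86 and 14.63 (r = -0.865, and -0.764 over 5).

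Immediate early genes also had a steeper median slope over 5 libraries than over 6, but their sum was highest in replicate 14, at 2657 RPM against 2522 in replicate 13. Of 17 AP-1 and immediate early genes, 2 were falling over 6 libraries and 8 over 5, with median slopes of -0.32 and -0.70. The shares falling among all genes were 7.25% and 8.03%. EGR1, a zinc finger factor that growth signals induce, was at 11.72, 11.46, 11.48, 11.41, 11.31 and 11.22 (r = -0.961, and -0.966 over 5). Across groups it averaged 11.43 ± 0.17 (n = 6) in wild-type, 10.58 ± 0.23 (n = 4) in T164A-labelled and 11.51 ± 0.51 (n = 6) in vector libraries, and wild type and vector were not called different (limma adjusted p = 0.73). The AP-1 subunit FOSL2 was at 13.07, 12.91, 12.75, 12.74, 12.78 and 12.57 (r = -0.916, and -0.878 over 5).

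Interferon response genes were highest in replicate 14 and less ordered among the other 5. Of 25 genes, 6 were falling over 6 libraries and 2 over 5, with median slopes of -0.27 and -0.46. Among all genes 7.25% and 8.03% were falling, so the count over 5 libraries lies near the share of all genes. STAT2, a transcription factor of the interferon pathway, was at 11.27 in replicate 14 and at 11.05 to 11.11 in the other 5 (r = -0.9504, and 0.45 over the middle 4). The antiviral GTPase MX1 was at 10.39 in replicate 14 and at 10.04 to 10.17 in the others (r = -0.957, and -0.649 over 5). ISG15, a ubiquitin-like protein that interferon induces, did not follow (r = 0.02), being highest in replicate 17 at 9.50. Of 11 genes of antigen presentation by MHC class I, none were rising or falling and 3 did not follow, beside 10.8%, 7.25% and 18.3% of all genes. Over 5 libraries 1 was falling, near the 8.03% of all genes. Their median r was -0.584 over 6 and -0.728 over 5, and their median slope -0.14 and -0.50.

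The genes with the lowest r were of several kinds. SRGAP2, a regulator of cell shape with near-identical copies in the human genome, was at 11.27, 11.04, 11.01, 10.99, 10.95 and 10.87 (r = -0.997, slope -0.34). NPAS2, a transcription factor of the circadian clock, was at 8.50, 8.18, 8.13, 8.10, 8.03 and 7.97 (r = -0.996). THBS1, the matrix protein thrombospondin, was at 11.90, 11.59, 11.59, 11.56, 11.48 and 11.41 (r = -0.994). These genes declined at every step or nearly so, with r of -0.999, -0.978 and -0.979 over 5 libraries. F3, the tissue factor that starts clotting, and PPL, which encodes periplakin of the squamous cell envelope, both had r = -0.992, and -0.935 and -0.936 over 5 libraries. The steepest falling gene was SLC25A43, a mitochondrial carrier, at 9.18, 8.75, 8.60, 8.65, 8.59 and 8.43 (slope -0.64). No falling gene had a slope of -0.7 or less, whereas 155 rising genes had 0.7 or more.

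Ribosomal, mitochondrial and glycolytic genes were lower in replicate 14 than in the other 5 libraries, among which fewer of them reached r of 0.9. Among all genes 10.8% were rising over 6 libraries and 5.65% over 5. Of 43 cytosolic ribosomal genes, 17 were rising over 6 libraries and 2 over 5, the latter near the share of all genes. Their median r was 0.877 over 6 and 0.335 over 5. Their summed estimated reads were 13905 RPM in replicate 14 and 16791 to 17760 in the other 5. RPLP0, a protein of the ribosomal stalk, was at 12.58 in replicate 14 and at 12.86 to 12.94 in the rest (r = 0.958, and -0.53 over the middle 4). RPL3 (13.07, 13.36, 13.43, 13.40, 13.44 and 13.48) and RPL38 kept r of 0.914 and 0.935 over 5 libraries. Of 40 nuclear genes for subunits of oxidative phosphorylation, 17 were rising over 6 and 5 over 5 libraries, the median r was 0.876 over 6 and 0.480 over 5, and their sum was 4145 RPM in replicate 14 and 4765 to 5174 RPM in the others. ATP5A1, a subunit of ATP synthase, was at 12.12, 12.44, 12.495, 12.49, 12.51 and 12.66 (r = 0.990, and 0.951 over 5).

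Of 25 genes of glycolysis and the hypoxia response, 13 were rising over 6 libraries and 4 over 5, beside 10.8% and 5.65% of all genes. Their sum was 6064 RPM in replicate 14 and 6842 to 7345 RPM in the others. BNIP3, a mitophagy receptor that hypoxia induces, was at 10.003, 10.36, 10.41, 10.46, 10.51 and 10.63 and kept its r (0.995 over 6, 0.996 over 5). PGK1 (r = 0.989) and LDHA (0.981), enzymes of glycolysis, kept r of 0.976 and 0.946 over 5 libraries, whereas ENO1 dropped to 0.830. Antioxidant genes were similar, with 11 of 25 rising over 6 libraries and 5 over 5, beside the same shares of all genes. Peroxiredoxin PRDX3 was at 11.35, 11.62, 11.67, 11.70, 11.71 and 11.87 (r = 0.983, and 0.980 over 5), and catalase (CAT) had r = 0.975 and a slope of 0.50. SOD1, the cytosolic superoxide dismutase, and peroxiredoxin PRDX4 had r of 0.986 and 0.981, and of 0.878 and 0.850 over 5.

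Of 24 genes of the unfolded protein and amino acid response, 9 were rising, 1 was falling and 2 did not follow over 6 libraries, whereas 2 were rising and 3 falling over 5. Of all genes, 10.8% were rising, 7.25% falling and 18.3% not following over 6, and 5.65% rising and 8.03% falling over 5. The median r of the list was 0.698 over 6 and 0.189 over 5. PDIA4, a disulphide isomerase, was at 11.48, 11.88, 11.94, 11.96, 12.04 and 12.12 (r = 0.998, slope 0.57, and r = 0.989 over 5 libraries). The lectin chaperone CALR (r = 0.981), the chaperone HSP90B1 (0.979) and the transcription factor XBP1 (0.985) were rising as well, with r of 0.867, 0.937 and 0.883 over 5. Of 23 cholesterol genes, 6 were rising, 2 falling and 7 did not follow, and over 5 libraries 1 was rising and 2 were falling. The falling count over 6 libraries and both counts over 5 lie near the shares of all genes. INSIG1, which holds back sterol synthesis, was among the 6 rising cholesterol genes (r = 0.97, and 0.836 over 5). Among 9 zinc genes at this level, 4 were rising, among them SLC30A4, a zinc exporter, at 11.47, 11.87, 12.12, 12.10, 12.18 and 12.36 (slope 0.76), and the importers SLC39A6 (r = 0.987) and SLC39A10 (0.978), and over 5 libraries 3 were rising. The collagen genes COL6A1 and COL6A2 (r = 0.974 and 0.942) ran with KLK3 and the matrix genes TGFBI and COL5A1 (-0.960 and -0.944) against it, and over 5 libraries their r was 0.775, 0.502, -0.988 and -0.881.

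Of 18 reference genes often used to scale expression, 4 were rising, 2 falling and 2 did not follow, beside 10.8%, 7.25% and 18.3% of all genes. Over 5 libraries 3 were rising and none falling. HPRT1, a purine salvage enzyme, was at 8.90, 9.15, 9.18, 9.20, 9.25 and 9.39 and had r of 0.978 over 6 and 0.995 over 5 libraries. Of 33 cell cycle genes, 11 did not follow, 1 was rising and 3 were falling, beside 18.3%, 10.8% and 7.25% of all genes. Over 5 libraries none were rising and 5 were falling, beside 5.65% and 8.03% of all genes. BIRC5, the mitotic protein survivin, was the rising one (r = 0.966, and 0.861 over 5). The spindle proteins TPX2 (-0.949) and KIF11 (-0.915) and the transcription factor E2F1 (-0.932) were falling, and KIF11 lost its direction over the middle 4 libraries (0.15).

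**Figure D3:**
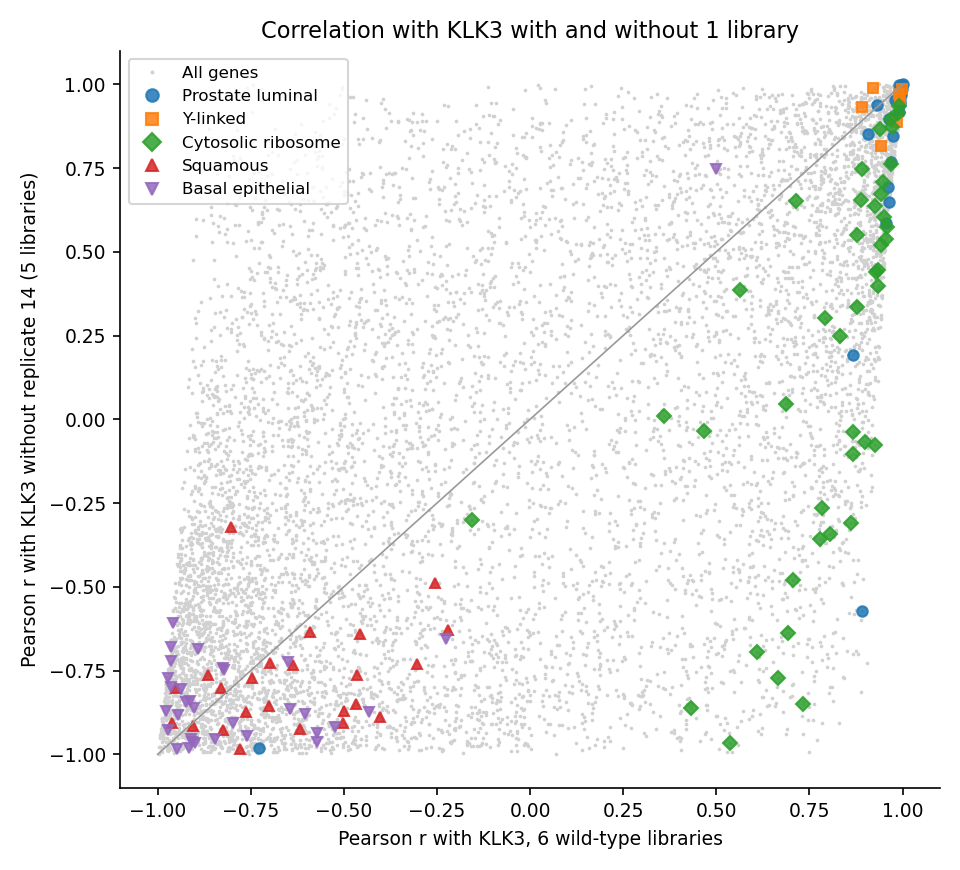
Pearson r with KLK3 over the 6 wild-type libraries (x axis) and over 5 libraries without replicate 14 (y axis), 1 point per gene, with 5 gene lists coloured over all 8952 genes (grey); the diagonal marks equal values. Most luminal and Y-linked genes sit in the upper right corner, ribosomal genes spread down from it (median r 0.877 over 6 and 0.335 over 5 libraries), and basal and squamous genes lie in the lower left.

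The 1638 genes that did not follow KLK3 varied less, with a median SD over the wild-type libraries of 0.08 against 0.17 for rising, 0.13 for falling and 0.10 for all genes. Replicate 14, the extreme of the gradient, was highest for 46 and lowest for 50 of them. Replicate 13 was highest for 499, 18 lowest for 454 and 17 lowest for 434. The classes were cut on r over these same libraries, so the SDs and these counts follow at least in part from that choice. A pair of defence genes had the same odd library. S100A8, an antimicrobial calcium-binding protein of squamous epithelium, was at 11.41, 11.85, 11.30, 11.28, 11.41 and 11.21, and SLPI, a secreted protease inhibitor, was at 10.81, 11.24, 10.82, 10.76, 10.77 and 10.56. Both stood well above the other libraries in replicate 13 and were lowest in 18. LGALS7B, a galectin of squamous cells with a near-identical copy, was highest there too, at 9.21 against 8.40 to 8.73 in the other 5.

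RN7SL1, the RNA of the signal recognition particle, was the most variable of these genes (SD 0.46): it was at 10.77 in replicate 13 and at 11.41 to 12.02 in the other 5. This RNA is not polyadenylated and has near-identical copies, and its value in poly-A libraries is uncertain. ZNF562, a zinc finger gene, was lowest in replicate 13 (9.91) and highest in 18 (10.58). HSPBP1, a co-chaperone of HSP70, was lowest in replicate 18, at 8.67 against 8.97 to 9.33 in the other 5, and TSSC4 likewise, at 8.46 in 18 and 8.53 in 14 against 8.91 to 9.05 in the middle 4. Among the 1638 genes, 113 were falling and 31 rising once replicate 14 was left out, and 443 did not follow with or without it.

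**Figure D4:**
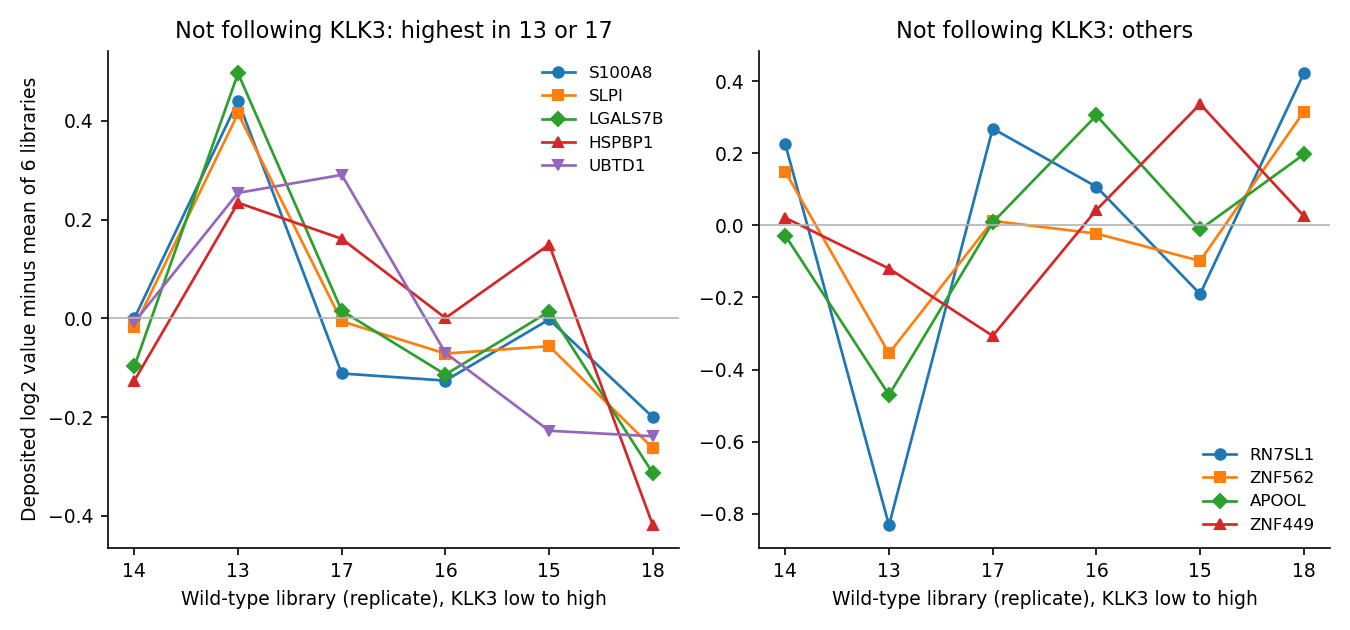
Deposited log2 value minus the mean of the 6 wild-type libraries (y axis) for 9 of the most variable genes that did not follow KLK3, with libraries ordered by KLK3 from low to high (x axis, replicate number). S100A8, SLPI and LGALS7B peak in replicate 13 (11.85, 11.24 and 9.21), and RN7SL1 is lowest there (10.77).

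The classes were next set beside wild type against vector. This contrast uses the same 6 wild-type libraries as the ranking, so the counts are a description and no independent support. It was tested with limma over all 20166 symbols at an adjusted p of 0.05. By that test 4244 symbols (21.0%) were higher and 4939 (24.5%) lower in wild type, and among the 8952 genes 2526 (28.2%) were higher and 3506 (39.2%) lower. Of the 964 rising genes, 923 were higher in wild type, none lower, and 41 had no call. Of the 649 falling genes, 582 were lower, none higher, and 67 had no call. Genes that did not follow were called less in both directions, with 181 higher and 456 lower of 1638. The minimum mean of 8 in wild type favours genes that are higher there, and for genes absent from vector it fixes the direction, so no counts are given for luminal and Y-linked genes. Luminal genes below that minimum went both ways. STEAP4 was at 6.63 in wild-type and 7.67 in vector libraries. Higher in wild type were TRPM8 (7.02 and 0.63), TFF3 (5.29 and -0.55), AMACR (5.32 and 3.31) and OPRK1 (4.13 and 0.53). So were MSMB (3.69 and 2.28) and, by less, DPP4 (6.92 and 6.68). NPY, TGM4 and ALOX15B averaged below the floor in wild type. Of the 32 basal genes 30 were lower and 1 higher, and of the 24 squamous genes 23 were lower. Ribosomal genes were higher in 32 of 43 cases and lower in none, and cell cycle genes higher in 4 and lower in 21 of 33. KRT5 averaged 16.52 ± 0.17 (n = 6) in wild-type, 15.46 ± 0.14 (n = 4) in T164A-labelled and 17.05 ± 0.14 (n = 6) in vector libraries, and was 0.53 lower in wild type than in vector (log2 difference -0.53, SE 0.09, limma adjusted p = 2.12e-05). TFCP2L1, an epithelial transcription factor, was among the genes with no call: it was falling (slope -0.62), and its difference from vector of -0.27 was not called (SE 0.12, limma adjusted p = 0.0633).

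Slopes were graded by the difference from vector. The median slope was 0.11 for 2632 genes up to 0.5 above vector, 0.32 for 700 genes between 0.5 and 1, 0.50 for 259 between 1 and 2, 0.74 for 101 between 2 and 4, and 0.84 both for 55 between 4 and 8 and for 33 above 8. Below vector it was -0.11 for 4411 genes down to -0.5, -0.31 for 739 between -0.5 and -1, and -0.27 for 22 at -1 or less. Leaving out replicate 14 changed the last of these to -0.88 and the one before it to -0.59.

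**Figure D5:**
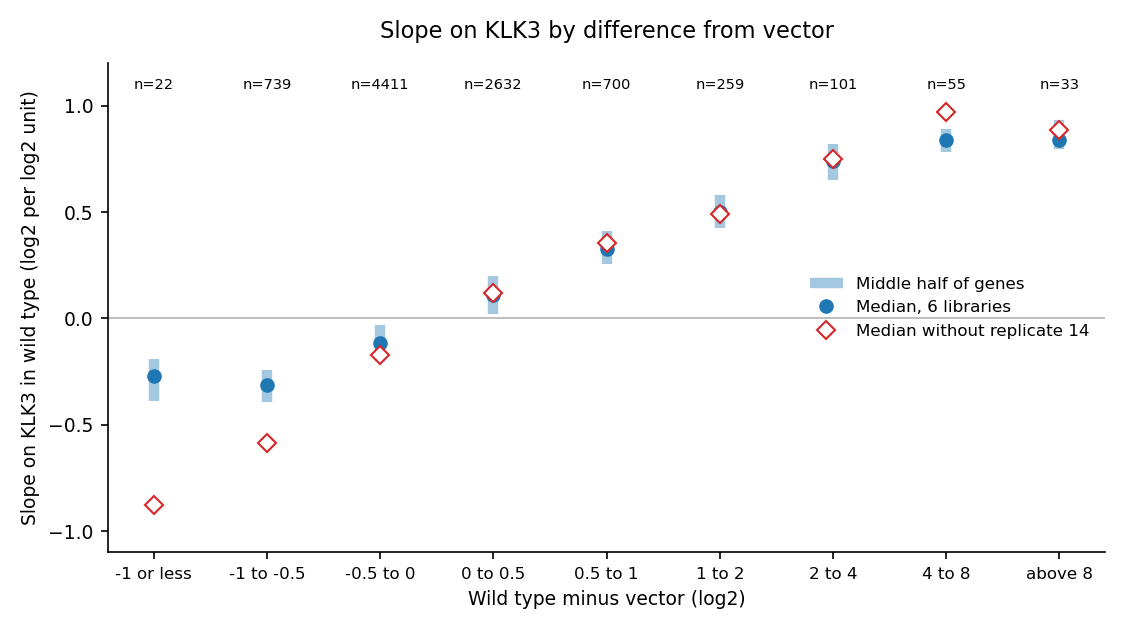
Slope on KLK3 over the wild-type libraries (y axis, log2 per log2 unit of KLK3) for genes grouped by the difference of wild type minus vector (x axis, log2, n above each group). Blue points are medians over 6 libraries, pale bars the range between the quartiles, and red diamonds medians without replicate 14. The medians level off at 0.84 for genes more than 4 above vector.

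At the top of this scale were 44 genes whose vector mean lay below the floor, so that a mean of 8 in wild type already set them apart from vector. Of these 43 were rising, beside 10.8% of all genes. Their slopes were 0.70 to 1.07 (median 0.84, and 0.90 without replicate 14), and r was positive for all 44 without replicate 14. Replicate 14 was lowest for all 44 and replicate 18 highest for 43. These counts include KLK3 itself. The 44 genes are unlike in kind. PEG3, an imprinted zinc finger gene, was at 12.53, 13.13, 13.14, 13.23, 13.34 and 13.46 (r = 0.997), at least 10.84 above the floor on average. KCNN2, a calcium-activated potassium channel, was at 9.49, 10.08, 10.19, 10.18, 10.26 and 10.44 (r = 0.998). The Y-linked non-coding RNA TTTY15 was at 8.72, 9.23, 9.38, 9.38, 9.44 and 9.65 (r = 0.991).

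In the libraries labelled T164A, 20 of these 44 genes also lay below the floor and 24 above it. KLK3, KLK2, PEG3, USP9Y and HPN were below it there. PRAME averaged 9.69 ± 0.39 (n = 6) in wild-type libraries and 10.50 ± 0.06 (n = 4) in those labelled T164A. For rising genes the median SD was 0.17 over the wild-type libraries, 0.11 over those labelled T164A and 0.13 over vector libraries. In the same order of groups it was 0.13, 0.13 and 0.09 for falling genes and 0.10, 0.13 and 0.10 for all 8952 genes. The rising and falling classes were cut on r over the same wild-type libraries. Their differences in SD between groups thus follow at least in part from that choice and are a description.

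Markers of other cell types were mostly at or below the floor. Of 19 measured markers of endothelial, blood, stromal, muscle, liver and glial cells, 14 had a wild-type mean below the floor and 1, the lysosomal CD68, had a mean of 8 or more. The endothelial VWF averaged 6.65 in wild-type, 2.34 in T164A-labelled and 3.62 in vector libraries. The stromal PDGFRB averaged 3.58, 3.48 and 1.70, the last below the floor. CD14 (5.58, 3.49 and 6.32), MYH11 (6.07, 5.81 and 6.88) and CD68 (8.56, 8.23 and 9.31) were lower in wild-type than in vector libraries. The endothelial CDH5 and KDR and the stromal DCN, LUM and PDGFRA averaged below the floor in wild-type libraries. The part of these markers in the results was not tested. Summed over the 19 markers, estimated reads were 40.4 to 47.1 RPM in wild-type libraries, 27.3 to 35.1 in those labelled T164A and 49.3 to 71.7 in vector libraries. Transcript properties differed between the classes: the median length of the longest transcript was 3190 bases for rising, 5689 for falling, 3744 for not following and 3985 for all genes, and median GC content was 49.4%, 45.0%, 48.7% and 47.9%. The part of length and base composition in the gradient was not tested.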

How the data were processed

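Libraries of poly-A RNA were made with a TruSeq kit and sequenced on an Illumina instrument, per the labels' protocols. Per the submitters' processing notes the tools were DESeq, Cufflinks 2.0.2, TopHat2 2.0.4 and CASAVA 1.8.2 with build GRCh37, their order and roles unstated. The authors deposited 1 table of log2 values. How they were made was not given in the sources used here. Because 2 to the power of a value lies on equal steps at high levels (after an offset of 1.88), depth, a floor of 3 reads and reads scaled to 1000000 per library (RPM) were estimated from the step of each library. Lower values carry extra scatter, so no count test was run. Intervals and floors cover counting error only.

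For the 304 symbols on several of the 21594 rows, the row with the highest mean was kept. Pearson r, Spearman rho and slopes on KLK3 used the 6 wild-type libraries. The contrast with vector used limma 3.58.1 (R 4.3.3, variance trend, all 16 libraries, two-sided, Benjamini-Hochberg adjustment), tested on simulated data. With no culture or batch in the labels, p-values reflect the spread between libraries, which may be technical. Members, lists and tests were chosen with earlier results of these data known. The naming rule takes KLK3, KRT5, the genes with the highest and lowest r and slopes, the most variable genes that did not follow, and the 4 members of each list with the largest r in size. Some genes that met it are not reported here. Promoters come from RefSeq, GRCh38.p14, matched by symbol, while the table was made on GRCh37. Near-identical and overlapping genes may share reads. Alternatives were other thresholds, minimum means, anchors, normalization and leaving out libraries.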

Additional observations from a re-analysis of the deposited data

Results flagged for a closer look

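One wild-type library lay far from the other 5 for 33 of the 106 genes tested, where the gap between the extreme library and its nearest neighbour, divided by the range of all 6, exceeded Dixon's 95% limit of 0.625. Chance gives about 1 in 20 such cases, but not for these genes: most were named for following KLK3, whose own replicate 14 exceeds the limit, so the choice of genes favours the same library and the counts are a description. In 32 of the 33 that library was replicate 14, and it was the lowest for 26 genes and the highest for 6.

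Among luminal genes with replicate 14 lowest, the ratio was 0.656 for KLK3, 0.655 for KLK2, 0.632 for FOLH1, 0.69 for HPN, 0.636 for HOXB13 and 0.845 for KRT8. KRT8 was thus the one with the most isolated library. Among Y-linked genes it was 0.683 for USP9Y, 0.648 for RPS4Y1 and 0.637 for DDX3Y. Among ribosomal genes it was 0.797 for RPLP0, 0.713 for RPL3 and 0.657 for RPL38, and among enzymes of glycolysis and antioxidant defence 0.718 for ENO1, 0.708 for SOD1 and 0.722 for PRDX4. For genes of the endoplasmic reticulum it was 0.632 for PDIA4, 0.678 for XBP1 and 0.685 for CALR. The remaining genes with replicate 14 lowest had 0.648 for PEG3, 0.659 for STXBP5L, 0.632 for ATXN10, 0.64 for PRAME, 0.823 for TRPM2, 0.667 for COL6A1, 0.651 for COL6A2 and 0.689 for EHMT2.

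With replicate 14 highest, the ratio was 0.731 for USP9X, 0.63 for MX1, 0.701 for STAT2, 0.626 for LPHN2, 0.71 for IGF2BP3 and 0.659 for PPL. S100A8 was the exception: replicate 13 was its highest library, with a ratio of 0.687. What set replicate 14 apart is not given by the labels, and the part of its depth, the highest of the 16 libraries, was not tested.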

How the results depend on the processing

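The count of rising genes, 964 in the reported setting, was 456 at a minimum mean of 10, 488 by Spearman's rho, 1583 and 526 at thresholds of 0.8 and 0.95, 224 with KRT5 as the anchor (584 falling) and 491 without the 2 libraries farthest from the median of KLK3. The count of falling genes, 649 as reported, was 415 at a minimum mean of 10 and 1516 and 245 at thresholds of 0.8 and 0.95. The changes with thresholds and minimum means follow from their construction, and the cause of the others was not tested. Leaving out each wild-type library in turn gave 506 (without 14) to 1285 (without 17) rising and 719 to 1158 falling genes, the last count moving by over 1.5 times without replicates 13, 15 or 17. Median slopes of lists moved by more than the median standard error of their members' slopes only without replicate 14. They ranged from 0.74 to 0.86 for luminal, 0.77 to 0.96 for Y-linked, -0.66 to -0.29 for basal, -0.99 to -0.24 for squamous, -0.46 to -0.25 for interferon, -0.50 to -0.10 for MHC class I, -0.13 to -0.035 for cell cycle, -0.70 to -0.25 for immediate early, -0.40 to -0.17 for NF-kB, -0.46 to 0.0059 for p53, -0.14 to 0.060 for cholesterol, 0.079 to 0.26 for glycolytic, 0.11 to 0.31 for ribosomal, 0.014 to 0.12 for zinc, -0.50 to -0.16 for mesenchymal and -0.034 to 0.098 for reference genes. The cholesterol and reference medians turned sign without replicate 14, and the p53 median without replicate 18. Among rising and falling genes of the text, r turned sign over the middle 4 libraries for USP9X (0.25), STAT2 (0.45), KIF11 (0.15) and RPLP0 (-0.53). Genes outside these classes turned sign as well, among them RPS4X (-0.965) and DDX3X (0.127). For the named genes, r stayed on its side of the limit in 1017 combinations of gene and setting and fell short of it in 193. The limma counts against vector ranged from 4051 to 4351 higher and from 4595 to 5147 lower when single libraries were left out. No paired analysis was possible because the groups share no replicate numbers. Estimated depth limits precision mainly for genes near the floor.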
